A study of Homo sapiens with 24 samples.

Results

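Cassette and mutually exclusive exons were followed in HEK293T cells, a human embryonic kidney line, after inhibition of either enzyme that sets protein O-GlcNAc. A cassette exon is an internal exon that is either kept or skipped, and mutually exclusive exons are neighbours of which a transcript normally keeps one. The exons were taken from the authors' own annotation of exon bins (segments of a gene counted separately): 5553 of 164219 bins carried the suffix for a cassette exon (4856 bins) or a mutually exclusive exon (697 bins) with no mark of a detained intron and no mixed annotation. The other bins used for comparison were 67668 constitutive internal exons and 4769 detained introns. The measure throughout is usage, the count of a bin as a percentage of the counts of all other bins of its gene outside detained introns, which can exceed 100%. A bin was tested in a comparison if its mean count there was 10 or more: 3874 of the 5553 exons at 2 h and 4185 at 6 h in the OSMI-2 experiment, and 4381 and 4191 in the TMG experiment. Just inside that limit at OSMI-2 6 h was ANKRD37_E001, with a mean of 10 counts, and just outside was ARHGEF17_E019, with 9.8.

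O-GlcNAc transferase (OGT) adds N-acetylglucosamine to serine and threonine residues of nuclear and cytoplasmic proteins, many RNA-binding and splicing proteins among them, and O-GlcNAcase (OGA, gene MGEA5) removes it. A detained intron is one that remains unspliced in a polyadenylated RNA held back in the nucleus, and OGT itself carries one whose splicing is known to follow O-GlcNAc levels. Exons whose inclusion brings in a premature stop codon are known to lower the output of a gene, and many genes of splicing factors hold one.

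Cells near confluence on 6-well plates received fresh medium and then 10 µM OSMI-2, an OGT inhibitor, or 5 µM TMG, an OGA inhibitor, or DMSO, the solvent. Each drug had its own DMSO groups and its own experiment, at 2 h and at 6 h, which gives 8 groups. The labels list 24 samples, 3 in each group, and the tables hold 23 libraries, since OSMI-2 at 6 h has 2. Libraries are named a, b and c as in the tables, and a letter ties no library of one group to one of another. All groups are of 1 cell line, the labels do not say that the samples of a group came from separate cultures, and all p-values therefore measure only the spread between these libraries. A change in usage in bulk RNA cannot tell a change in splicing from a change in the decay of one transcript form, or a change in every cell from a change in some.

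The summed bin counts were 39465746 to 100161560 per library. VIM, a gene the line is known to express, stood at 306 to 787 CPM (counts scaled to library size), while NEFM, PAX2 and EYA1, also known from the line, stood at 0.3 to 4.2, and PTPRC, ALB and MYOD1 had no row. In the OSMI-2 experiment the 3 DMSO libraries at 6 h stood apart from the rest: detained introns took 0.756% to 1.21% of their counts, against 0.239% to 0.276% in DMSO at 2 h, 0.232% to 0.278% in OSMI-2 at 2 h and 0.286% to 0.328% in OSMI-2 at 6 h. DMSO library a at 6 h also differed in the slope of log gene counts on transcript GC content (0.436, against 1.161 and 1.089 in libraries b and c and 1.038 and 1.071 in OSMI-2). In the TMG experiment the detained-intron share was 0.462% to 0.669% in DMSO and 0.58% to 0.668% in TMG at 6 h. Every comparison at OSMI-2 6 h rests on those 3 DMSO libraries, and their part in the results was not tested.

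The sequences of 4 exons follow, read from GENCODE release 29 transcripts that matched the authors' bins by gene, strand, exon length and the order of neighbouring exon lengths. They are shown 5′ to 3′ on the coding strand, and their positions are the authors' bins in hg19. The first are the mutually exclusive exons of FYN, a kinase of the Src family, shown because the usage of FYN_E007 changed with both drugs: FYN_E008 lies at chr6:112021307-112021471 and FYN_E007 at chr6:112020718-112020873, both on the minus strand. Each capital base lies in a run of 6 bases that occurs in both exons. Such runs may overlap, so a longer stretch of capitals need not occur as a whole in the other exon.
FYN_E008: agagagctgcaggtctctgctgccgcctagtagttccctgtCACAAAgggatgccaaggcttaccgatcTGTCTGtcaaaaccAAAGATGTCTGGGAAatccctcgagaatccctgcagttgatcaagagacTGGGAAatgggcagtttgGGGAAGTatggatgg
FYN_E007: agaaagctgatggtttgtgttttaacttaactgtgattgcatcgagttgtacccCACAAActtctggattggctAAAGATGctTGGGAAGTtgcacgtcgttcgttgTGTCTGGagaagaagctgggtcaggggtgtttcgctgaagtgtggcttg
Both exons are wholly coding in the matched transcripts, and their lengths of 165 and 156 bases are multiples of 3, so either one keeps the reading frame.

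The other 2 are the beginnings of exons that carry a stop codon, in capitals, in a GENCODE transcript classed as a target of nonsense-mediated decay. They are DDX46_E017 (chr5:134125796-134125912, plus strand, 117 bases), in the gene of a DEAD-box helicase of the U2 snRNP, and SNRNP70_E009 (chr19:49605371-49605430, plus strand, 60 bases), in the gene of the U1 snRNP 70K protein. Each is shown from its first base to the stop.
DDX46_E017: gtgatgctgtcagaTAA
SNRNP70_E009: ccaccacgcagctggcttgcagcTGA
The stop begins at base 15 of DDX46_E017 and base 24 of SNRNP70_E009, counted from the exon's 5′ end. Both exons have lengths divisible by 3, so the length alone does not show the stop. No GENCODE match met the criteria for OGT_E006, TIAL1_E003, RBM22_E005, POLG2_E008 or STEAP3_E010, described below, and no sequence is shown for them.

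One cassette exon of OGT went in opposite directions under the drugs. OGT_E006 (chrX:70766194-70766346, plus strand, 153 bases) lies between the detained introns OGT_E005 and OGT_E007. At 6 h its usage was 1.31%, 1.65% and 1.2% in DMSO and 0.128% and 0.0944% in OSMI-2, on counts of 203, 115 and 107 against 4 and 3. Usage fell by 3.6 on the log2 scale (SE 0.36, adjusted p = 0.000111 by edgeR). In TMG at 6 h usage was 2.87%, 3.06% and 2.63%, against 0.709%, 1.13% and 0.915% in DMSO. There it rose by 1.64 (SE 0.12, edgeR adjusted p = 1.27e-07). The groups overlapped in neither comparison, which the rule for naming exons by size of change required. Both calls were kept in every alternative analysis apart from limma.

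At 2 h OGT_E006 stood at 0.765%, 0.755% and 0.686% in DMSO and 0.154%, 0.102% and 0.394% in OSMI-2. The groups did not overlap, but the exon had a mean of 11.67 counts and the log2 difference of -2.05 (SE 0.42) did not pass the test (edgeR adjusted p = 1, unadjusted p = 0.000418). In TMG at 2 h usage was 2.45%, 2.08% and 2.72%, against 1.73%, 2.23% and 1.94% in DMSO, which overlap (log2 difference 0.29, edgeR adjusted p = 0.576). The drug effects differed at 6 h by -5.24 (OSMI-2 minus TMG, SE 0.39, edgeR interaction adjusted p = 2.24e-07). The TMG effect was larger at 6 h than at 2 h by 1.34 (SE 0.18, adjusted p = 0.00211). Between the DMSO groups OGT_E006 also moved, rising by 0.89 from 2 h to 6 h in the OSMI-2 experiment (adjusted p = 0.023) and falling by 1.1 in the TMG experiment (adjusted p = 3.93e-05).

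The flanking detained introns followed the same order of groups as OGT_E006, on the same scale of percent of the gene's other counts. OGT_E005 stood at 4.98% to 6.68% in DMSO and 0.447% and 1.16% in OSMI-2 at 6 h, and at 3.56% to 5.25% in DMSO and 11.5% to 12.1% in TMG. OGT_E007 stood at 5.85% to 7.68% and 0.831% to 0.943% in the former comparison and 4.05% to 4.58% and 11.2% to 11.3% in the latter. A read that spans a boundary may be counted in both bins, so reads of a retained intron may also add to the exon, and their part in the change of OGT_E006 was not tested. The 3 other cassette bins of the gene, OGT_E010, OGT_E015 and OGT_E018, passed in none of the 4 comparisons, with log2 differences between -0.22 and 0.11.

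**Figure D1:**
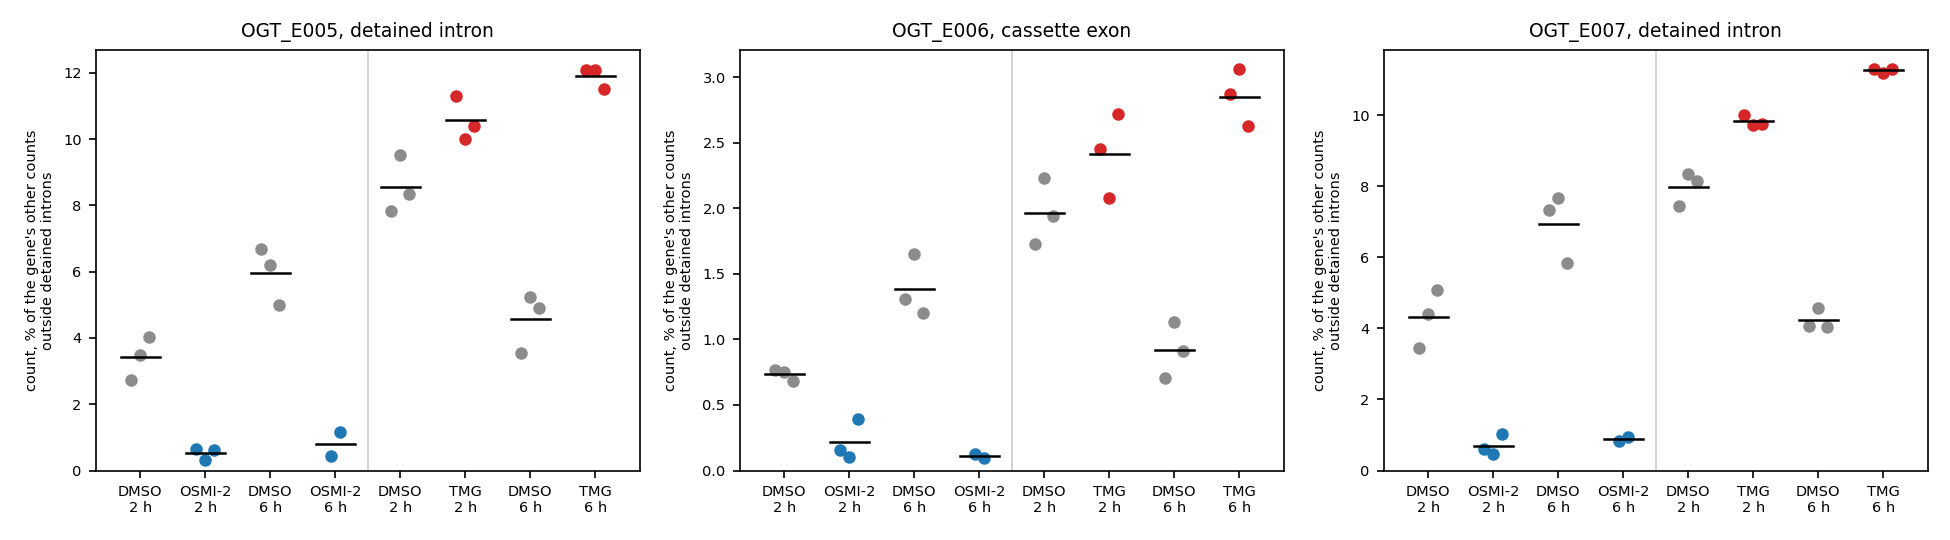
Usage of OGT_E006 and of the detained introns on either side, as percent of the gene's other counts outside detained introns (y axes, separate scales), by group (x axis). Points are libraries and bars are group means: in all 3 bins OSMI-2 lies below its DMSO groups, and TMG at 6 h lies above its own.

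FYN has a pair of mutually exclusive exons known from the brain and T-cell forms of the kinase. FYN_E007, next to the detained intron FYN_E006, stood at 2.96%, 3.57% and 3% in DMSO and 2.27% and 1.82% in OSMI-2 at 6 h. In TMG at 6 h it stood at 4.58%, 4.07% and 5.56%, against 2.96%, 2.68% and 2.62% in DMSO. FYN_E007 fell by 0.65 with OSMI-2 (SE 0.15, edgeR adjusted p = 0.0376) and rose by 0.78 with TMG (SE 0.12, adjusted p = 0.0165). The groups overlapped in neither comparison, which the rule for naming exons by size of change required.

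FYN_E008 lay on the other side in each case without passing the test. Its usage was 6.36%, 6.5% and 6.32% in DMSO and 7.97% and 7.71% in OSMI-2 at 6 h (log2 difference 0.29, SE 0.09, edgeR adjusted p = 0.125). In TMG it was 5%, 5.6% and 5.45%, against 6.35%, 6.7% and 6.65% in DMSO (-0.3, SE 0.09, adjusted p = 0.526). The difference between the drugs passed for both exons at 6 h, at -1.44 for FYN_E007 (SE 0.2, adjusted p = 0.000315) and 0.59 for FYN_E008 (SE 0.12, adjusted p = 0.00746).

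The count of FYN_E007 over that of FYN_E008, which does not depend on the rest of the gene, was 0.301 and 0.249 in OSMI-2 at 6 h and 0.481, 0.565 and 0.489 in its DMSO group. It was 0.92, 0.738 and 1.02 in TMG at 6 h and 0.482, 0.416 and 0.409 in its DMSO group. At 2 h the 12 libraries of both experiments lay between 0.36 and 0.576 with drug and DMSO overlapping. The detained intron FYN_E006, which was not tested, lay in the same order, from 0.694% to 0.883% in DMSO to 0.217% and 0.169% in OSMI-2, and from 0.66% to 1.16% in DMSO to 1.87% to 2.02% in TMG, and its part in the change of FYN_E007 was not tested. The OSMI-2 call of FYN_E007 was the less firm one: it was kept in 6 of 16 alternative analyses (adjusted p from 0.00359 to 0.921), and was lost without DMSO library b (0.129) or c (0.0549) and without OSMI-2 library a (0.0641) or b (0.498). The TMG call was kept in 11 of 17, and was lost without DMSO library c (0.0543) and without TMG library a (0.0681) or c (0.153).

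**Figure D2:**
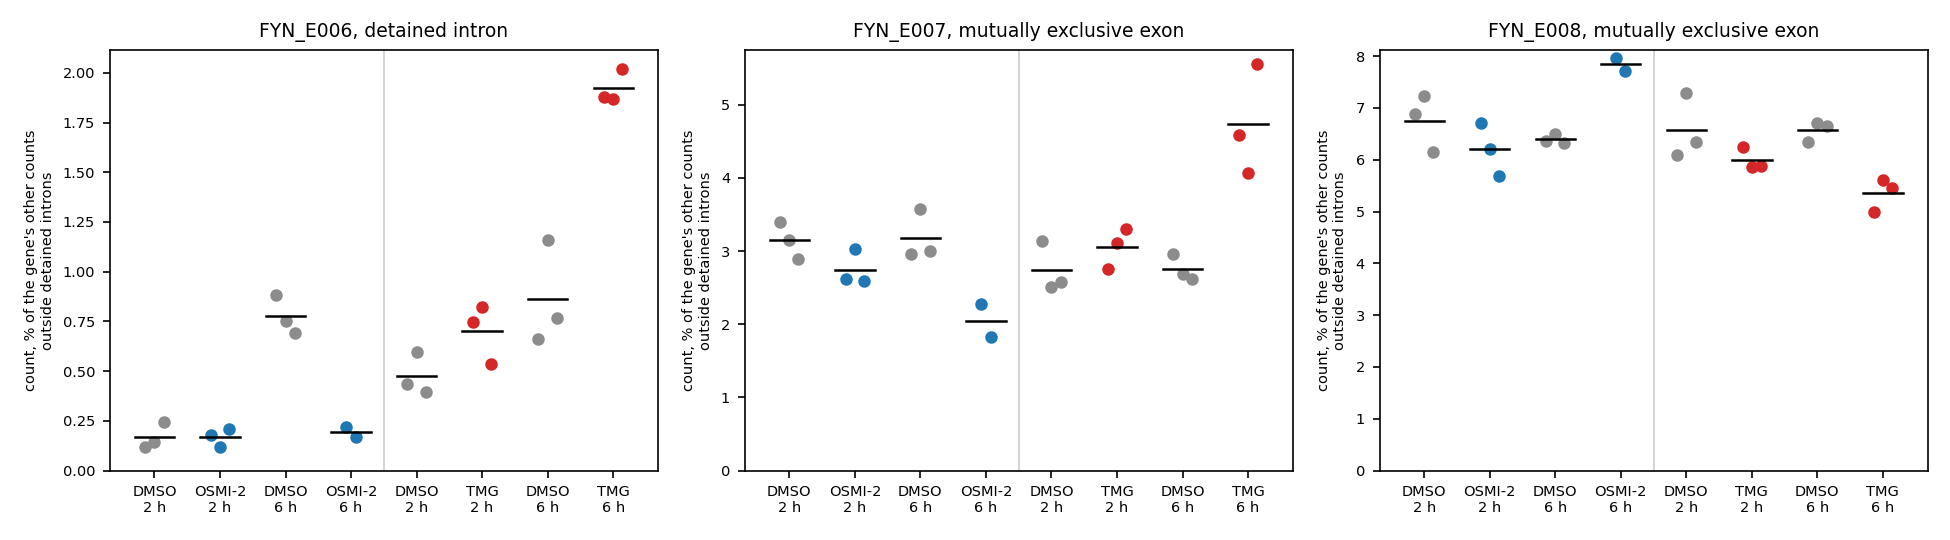
Usage of the mutually exclusive exons FYN_E007 and FYN_E008 and of the detained intron FYN_E006, as percent of the gene's other counts outside detained introns (y axes, separate scales), by group (x axis). Points are libraries and bars are group means: at 6 h FYN_E007 lies below DMSO in OSMI-2 (1.82% and 2.27%) and above it in TMG (4.07% to 5.56%), and FYN_E008 lies the other way.

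The exons DDX46_E016 and DDX46_E017, annotated as mutually exclusive, both fell with OSMI-2. They lie between the detained introns DDX46_E015 and DDX46_E018, 1 beside each exon. DDX46_E017 had counts of 43, 25 and 20 in DMSO and 7 and 8 in OSMI-2 at 6 h, or 0.8%, 0.887% and 0.68% against 0.187% and 0.129%, and fell by 2.36 (SE 0.33, edgeR adjusted p = 0.00124). DDX46_E016 stood at 0.389%, 0.459% and 0.373% against 0.08% and 0.0323%, on 3 and 2 counts in OSMI-2, and fell by 2.93 (SE 0.49, adjusted p = 0.00481).

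With TMG, DDX46_E017 was the only exon of either class to pass at both times. It rose by 1.36 at 2 h (0.365%, 0.369% and 0.265% against 0.152%, 0.122% and 0.113%, SE 0.24, edgeR adjusted p = 0.0277) and by 1.29 at 6 h (0.431%, 0.42% and 0.536% against 0.19%, 0.176% and 0.198%, SE 0.2, adjusted p = 0.0137). The 2 h call of DDX46_E017 was kept in 9 of 15 alternative analyses (adjusted p from 0.000337 to 0.758), and was lost without DMSO library b (0.0661) or c (0.117) or TMG library b (0.147). The 6 h call was kept in 10 of 15 (0.00508 to 0.82), and was lost without TMG library c (0.118). With OSMI-2 the falls of DDX46_E017 and DDX46_E016 were lost without OSMI-2 library b (0.0682 and 0.175). DDX46_E016 did not pass with TMG (log2 difference 0.33 at 2 h and 1.38 at 6 h, adjusted p = 0.895 and 0.194). The drug effects on DDX46_E017 differed at 6 h by -3.66 (SE 0.36, adjusted p = 8.22e-06). DDX46_E015 stood at 0.641% to 0.809% in DMSO and 0.107% and 0.0969% in OSMI-2 at 6 h, and at 0.176% to 0.266% in DMSO and 0.411% to 0.584% in TMG, and DDX46_E018 lay in the same order. DDX46_E017 also rose by 2.6 between the DMSO groups of the OSMI-2 experiment (adjusted p = 0.00119), from 0.0392% to 0.173% at 2 h.

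At OSMI-2 6 h, 16 of 3606 cassette exons rose and 66 fell (2.27%), and 0 of 579 mutually exclusive exons rose and 11 fell (1.9%), at an edgeR adjusted p under 0.05. Among all 125960 bins tested, 2.58% passed, 0.607% higher and 1.97% lower, so the shares of these exons were near the background. Constitutive internal exons passed less often, at 0.416%. The median log2 difference was 0.02 for cassette exons, 0.01 for mutually exclusive exons and 0.02 for all bins. The calls rest on few libraries: without OSMI-2 library b, 26 cassette and 1 mutually exclusive exon passed, and without OSMI-2 library a 45 and 6, where the single remaining library was taken to vary like the DMSO group. Without DMSO library a, 65 and 7 passed. Of the exons singled out by the naming rule or after their values were seen, 23 of 36 lost their call without OSMI-2 library b and 16 of 37 without OSMI-2 library a, and without DMSO library a, b or c this was 7 of 35, 8 of 35 and 4 of 36. A limma test of the log2 ratio called 0 of either class, DESeq2 called 54 and 6, and in simulated counts with known changes 41 of 205 edgeR calls (20%) were of unchanged bins.

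Among the cassette exons that fell, 3 lie in genes of RNA-binding and splicing proteins that the naming rule or the lists picked out. TIAL1_E003 (chr10:121336359-121336417, 59 bases), in the gene of the RNA-binding protein TIAR, stood at 2.48%, 2.79% and 1.62% in DMSO and 0.335% and 0.672% in OSMI-2 and fell by 2.08 (SE 0.28, edgeR adjusted p = 0.00108). SNRNP70_E009, with its stop codon shown above, stood at 0.873%, 0.558% and 0.493% against 0.174% and 0.198% and fell by 1.73 (SE 0.2, adjusted p = 0.000378). RBM22_E005 (chr5:150074303-150074371, 69 bases), in the gene of a spliceosomal RNA-binding protein and between detained introns, stood at 1.4%, 0.971% and 0.94% against 0.365% and 0.469% and fell by 1.4 (SE 0.31, adjusted p = 0.0275). That call was the least firm, kept in 7 of 15 alternative analyses, against 14 of 16 for TIAL1_E003 and 13 of 16 for SNRNP70_E009. It was lost with DESeq2, with scaling by library size and without DMSO library a (edgeR adjusted p = 0.102). In each of the 3 the groups did not overlap, which the naming rule required of TIAL1_E003 and SNRNP70_E009. RBM22_E005 was picked by a list without that limit.

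Each of these exons was low at 2 h in both groups of the experiment. At 2 h TIAL1_E003 stood at 0.492%, 0.747% and 0.496% in DMSO and 0.433%, 0.662% and 0.808% in OSMI-2. SNRNP70_E009 stood at 0.134%, 0.144% and 0.19% and at 0.125%, 0.165% and 0.187%. RBM22_E005 stood at 0.103% to 0.3% in DMSO and 0.19% to 0.295% in OSMI-2. For TIAL1_E003 and SNRNP70_E009 the OSMI-2 libraries at 6 h lay within or just outside the range of the 2 h libraries, TIAL1_E003 in library a below it, and for RBM22_E005 they lay above it. In all 3 exons the DMSO libraries at 6 h lay above every other library of the experiment. From 2 h to 6 h in DMSO, TIAL1_E003 rose by 2 (edgeR adjusted p = 0.000407), SNRNP70_E009 by 1.99 (8.65e-05) and RBM22_E005 by 2.46 (0.00145). These comparisons share the DMSO libraries at 6 h with the drug comparison. In TMG neither time gave a call for the 3 exons, with log2 differences between -0.13 and 0.32.

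Other large falls came from long bins and from a bin of a few bases. POLG2_E008 (chr17:62483015-62486794, 3780 bases), in the gene of the accessory subunit of mitochondrial DNA polymerase, stood at 24.3%, 28.3% and 18.8% in DMSO and 6.02% and 5.67% in OSMI-2 and fell by 2.03 (SE 0.19, edgeR adjusted p = 8.83e-05). C1orf35_E003 (chr1:228289436-228289615, 180 bases) stood at 1.57%, 1.14% and 0.919% against 0.311% and 0.316% and fell by 1.92 (SE 0.24, adjusted p = 0.000605). CYTH2_E011 (chr19:48980974-48980976) is an exon of 3 bases in cytohesin 2, an exchange factor for Arf GTPases, and stood at 2.18%, 2.03% and 1.86% against 0.552% and 0.677%, a fall of 1.68 (SE 0.16, adjusted p = 0.000101).

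CYTH2_E011 was unsteady between libraries of one group: at 2 h its counts were 1, 1 and 2 in DMSO and 0, 30 and 37 in OSMI-2, and 10, 18 and 0 in DMSO and 2, 14 and 17 in TMG. RPS24_E005 (22 bases), in the gene of a ribosomal protein, had the highest counts among the exons named here, 1749 to 3253 at 6 h, and fell by 0.34, from 4.42% to 4.77% in DMSO to 3.42% and 3.79% in OSMI-2 (SE 0.06, adjusted p = 0.00511). FUBP1_E001 (137 bases), in the gene of an activator of MYC, stood at 2.97%, 2.75% and 3.12% against 1.25% and 1.37% and fell by 1.16 (SE 0.13, adjusted p = 0.000242). SIRT7_E002 and AK3_E005, in the genes of a nucleolar deacetylase and a mitochondrial adenylate kinase, fell by 1.88 and 1.48. In DMSO from 2 h to 6 h, CYTH2_E011 rose by 5.78 (edgeR adjusted p = 9.4e-07), C1orf35_E003 by 2.14 (0.00019) and AK3_E005 by 1.99 (0.0001). SIRT7_E002 rose by 1.69 (0.00212) and FUBP1_E001 by 1.13 (0.000171), and the rises of POLG2_E008 and RPS24_E005 are given below. AK3_E005 in OSMI-2 stood at 10.9% at 6 h. At 2 h it stood at 5.26% to 11% in DMSO and 3.41% to 6.49% in OSMI-2.

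The 11 mutually exclusive exons that fell were those of FYN, DDX46 (both exons), MIA3 (both exons), PHC2, BCAT2, TLE4, TARBP1, DNMT3B and PQLC2. PHC2_E003, in the gene of a Polycomb protein, stood at 0.749%, 0.401% and 0.442% in DMSO and 0.123% and 0.0841% in OSMI-2 and fell by 2.33 (SE 0.34, edgeR adjusted p = 0.00177). PQLC2_E010 (chr1:19654065-19654547, 483 bases), in the gene of a lysosomal amino acid transporter, stood at 7.51%, 6.34% and 7.79% against 4.95% and 4.45% and fell by 0.62 (SE 0.13, adjusted p = 0.0197). The exons of BCAT2, a mitochondrial aminotransferase, TLE4, a corepressor, TARBP1 and DNMT3B, a DNA methyltransferase, fell by 2.3, 1.78, 1.64 and 1.5. In MIA3, whose product exports collagen from the endoplasmic reticulum, MIA3_E028 fell by 2.01 and MIA3_E029 by 1.48. With FYN_E007 and PQLC2_E010 apart, each of these exons had a mean under 50 counts. The call of MIA3_E029 was kept in 6 of 15 alternative analyses and that of TLE4_E013 in 7 of 15. For DNMT3B_E024 this was 8 of 15, for PQLC2_E010 8 of 16 and for MIA3_E028 9 of 15. The calls of BCAT2_E003 (11 of 14), PHC2_E003 and TARBP1_E008 (12 of 15 each) were firmer. In DMSO from 2 h to 6 h, MIA3_E028 rose by 2.32 (edgeR adjusted p = 0.00496), BCAT2_E003 by 1.82 (0.017) and TLE4_E013 by 1.75 (0.0266). TARBP1_E008 rose by 1.72 (0.00379), PHC2_E003 by 1.48 (0.00798) and MIA3_E029 by 1.46 (0.0212). FYN_E007, PQLC2_E010 and DNMT3B_E024 did not pass there (0, 0.29 and 0.81, adjusted p = 0.992, 0.202 and 0.121).

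Fewer cassette exons rose than fell. DNAH14_E005 (chr1:225147855-225148004), in the gene of a dynein heavy chain, stood at 6.12%, 5.61% and 5.28% in DMSO and 10.4% and 12.2% in OSMI-2 at 6 h and rose by 1 (SE 0.17, edgeR adjusted p = 0.00511). DNM1_E005 (chr9:130982267-130982365), in the gene of dynamin 1, stood at 1.39%, 2.06% and 2.32% against 4.11% and 3.31% and rose by 0.91 (SE 0.2, adjusted p = 0.0292). ZNF554_E003 (2836 bases), of a zinc-finger gene, stood at 17%, 31.4% and 27.3% against 44.2% and 47.9% and rose by 0.88 (SE 0.19, adjusted p = 0.0242). In none of the 3 did the groups overlap, which the naming rule required. The calls were kept in 11, 7 and 10 of 16 alternative analyses, in the order given. That of DNM1_E005 was lost without DMSO library a (edgeR adjusted p = 0.0665) or b (0.0745). At 2 h DNAH14_E005 had stood at 10.7% to 17.1% in DMSO and 15% to 16.6% in OSMI-2, above the 6 h DMSO libraries in every case.

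FAM219B_E008 rose by 0.79 and AHRR+XLOC_PDCD6_E021, a bin of a merged gene group, by 0.84. When counts were scaled by library size and not by the gene, DNAH14_E005 and AHRR+XLOC_PDCD6_E021 turned to small values below 0, given in the section on processing. EIF2AK2, the gene of the double-stranded RNA kinase PKR, had 2 exons that rose, EIF2AK2_E006 by 1.16 (3.39%, 3.03% and 2.64% against 6.82% and 7.02%, SE 0.19, edgeR adjusted p = 0.00372) and EIF2AK2_E004 by 0.84 (SE 0.19, adjusted p = 0.0345). These calls were kept in 10 and 6 of 15 alternative analyses. That of EIF2AK2_E004 was lost without DMSO library a (edgeR adjusted p = 0.129) or b (0.0787). MATR3_E011, in the gene of the nuclear matrix protein matrin 3, rose by 0.7 (1.55%, 1.41% and 1.55% against 2.66% and 2.31%, SE 0.12, adjusted p = 0.00636).

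The largest rise was that of DPY30_E007, in the gene of a subunit of histone H3 lysine methyltransferases, at 3.01 (SE 0.35, edgeR adjusted p = 0.000401). It had 4, 5 and 3 counts in DMSO and 26 and 46 in OSMI-2. The exon was as unsteady elsewhere: its counts were 6, 22 and 5 in DMSO at 2 h, 3, 37 and 8 in OSMI-2 at 2 h and 9, 53 and 8 in DMSO at 6 h of the TMG experiment. MORF4L1_E007, in the gene of a chromatin protein, rose by 0.67 (SE 0.13, edgeR adjusted p = 0.0138), with 4.3%, 6.41% and 4.08% in DMSO and 7.47% and 7.97% in OSMI-2. The call was kept in 6 of 16 alternative analyses (adjusted p from 0.000287 to 0.408), and was lost without OSMI-2 library a (0.0828) or b (0.232). The exon also varied within other groups, such as 7.8%, 5.14% and 7.75% in DMSO at 2 h of the TMG experiment.

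**Figure D3:**
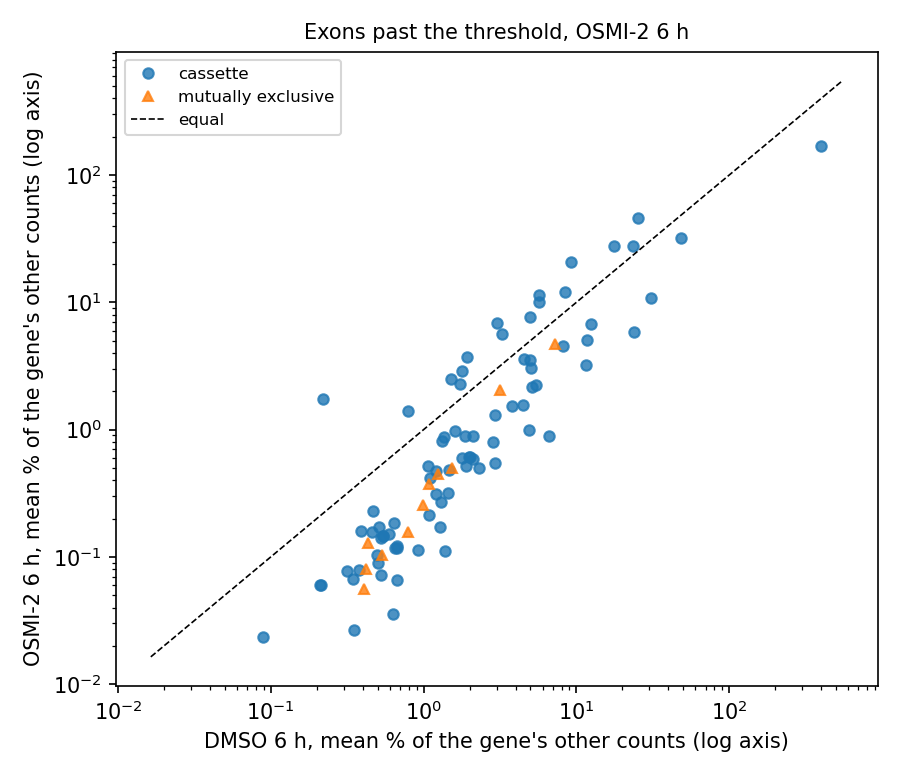
Exons past the threshold at OSMI-2 6 h: mean usage in DMSO (x axis) against OSMI-2 (y axis), both as percent of the gene's other counts on log axes. Circles are the 82 cassette and triangles the 11 mutually exclusive exons, and the dashed line marks equal usage: most lie below it.

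Falls at OSMI-2 6 h were more frequent among exons that border a detained intron. Of the cassette exons next to one, 28 of 429 fell (6.53%), and of those next to none 38 of 3177 (1.2%). Of the mutually exclusive exons, 8 of 78 next to a detained intron fell (10.3%) and 3 of 501 next to none (0.599%). Among constitutive internal exons the shares were 12 of 2906 next to 1 detained intron (0.413%) and 98 of 46554 next to none (0.211%). Rises were found in 2 of the 429 cassette exons (0.466%) and 14 of the 3177 (0.441%). Among all bins tested 1.97% fell and 0.607% rose. Of all 4856 cassette exons, 501 (10.3%) lie next to a detained intron, of the mutually exclusive exons 83 of 697 (11.9%) and of the constitutive internal exons 3224 of 67668 (4.76%).

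**Figure D4:**
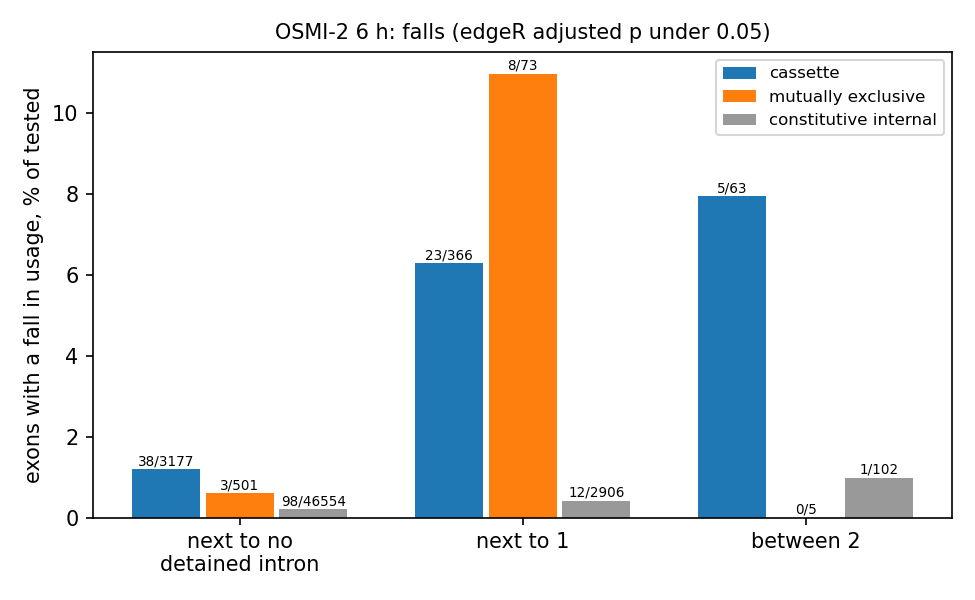
Share of tested exons whose usage fell at OSMI-2 6 h (y axis, percent) by how many detained introns they border (x axis), for cassette, mutually exclusive and constitutive internal exons, with counts above the bars. Falls among cassette exons were 38 of 3177, 23 of 366 and 5 of 63 next to none, next to 1 and between 2.

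The difference by neighbour kept its direction for cassette exons in all alternatives that called any: without DMSO library a, 20 of 420 against 31 of 3155 fell, and without OSMI-2 library b, 10 of 430 against 14 of 3123. For mutually exclusive exons 0 of 79 and 1 of 495 fell without OSMI-2 library b. The DMSO libraries at 6 h, in which detained introns took the largest share of counts, enter every one of these counts. Between the DMSO groups of the OSMI-2 experiment, 34 of 408 cassette exons next to a detained intron rose from 2 h to 6 h (8.33%) and 95 of 2984 next to none (3.18%), beside 4.12% of all bins. Constitutive internal exons went the other way: 37 of 2793 next to 1 detained intron rose (1.32%) and 810 of 41818 next to none (1.94%). Reads counted in both an intron and the exon beside it were not separated, and their part was not tested.

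The exons that fell were mostly ones of low inclusion. Inclusion was taken as a level per base, counts per base of the exon over counts per base of the rest of the gene, so that 1 means that the exon is covered like the rest of its gene. Cassette exons that fell had a median level of 0.132, against 1.56 in those that did not pass and 1.58 in those that rose. Mutually exclusive exons that fell had a median of 0.281, against 1.72. These levels come from the same libraries as the calls and are given as a description.

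Within exons of a level below 1, 24 of 125 cassette exons next to a detained intron fell (19.2%) and 36 of 737 next to none (4.88%). For mutually exclusive exons these were 8 of 17 (47.1%) and 3 of 95 (3.16%). Among exons at a level of 1 or above, 4 of 304 cassette exons next to a detained intron fell (1.32%) and 2 of 2440 next to none (0.082%), and 0 of 61 and 0 of 406 mutually exclusive exons. The level is taken over drug and DMSO libraries alike, so a fall itself lowers it, and the split does not separate inclusion from the neighbour.

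TMG moved few of these exons. At 2 h, 1 of 3785 cassette exons and 1 of 596 mutually exclusive exons passed, both higher, beside 0.0324% of all bins (0.0241% higher and 0.00829% lower, edgeR). At 6 h, 2 of 3621 cassette exons passed, 1 in each direction, and 2 of 570 mutually exclusive exons, both higher, beside 0.0148% of all bins (0.0117% higher and 0.00312% lower). At an unadjusted p under 0.05 (edgeR) these were 224 and 36 exons at 2 h, beside 9000 of all 132674 bins. At 6 h they were 164 and 27, beside 7401 of all 128296 bins. Leaving out single libraries gave 0 to 3 cassette and 0 to 1 mutually exclusive exons at 2 h, with 0 cassette exons without DMSO library a or TMG library c, and 1 to 3 and 0 to 2 at 6 h, with 0 mutually exclusive exons without TMG library c. Limma called 0 at both times.

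The exons past the threshold with TMG were OGT_E006, FYN_E007 and DDX46_E017, described above, and STEAP3_E010 and SLIT2_E012. STEAP3_E010 (chr2:120021779-120022270, 492 bases), in the gene of an endosomal ferrireductase, stood at 27.7%, 27.9% and 31.9% in TMG at 2 h and 20%, 21.5% and 22.3% in DMSO. It rose by 0.45 (SE 0.08, edgeR adjusted p = 0.0229), a call lost without DMSO library a (0.0923) or TMG library c (0.121). At 6 h the groups overlapped, at 25% to 29.2% in TMG and 24.6% to 29.2% in DMSO. The DMSO groups of the experiment differed by 0.37 between the times (adjusted p = 0.00755).

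SLIT2_E012 (chr4:20492426-20492568, 143 bases), in the gene of a guidance ligand of ROBO receptors, had 1, 2 and 0 counts in TMG at 6 h and 19, 19 and 20 in DMSO, and fell (edgeR adjusted p = 0.00162). The fitted log2 difference depends on the prior count and is no bound. Counts near 0 were not particular to that group: the exon had 0, 0 and 9 counts in DMSO at 2 h of the OSMI-2 experiment, and 19, 11 and 0 in TMG at 2 h. Its mean of 10.17 counts lay just above the limit for testing.

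At OSMI-2 2 h, 0 of 3321 cassette and 0 of 553 mutually exclusive exons passed the edgeR test, as did 0 of all 116469 bins (0%). At an unadjusted p under 0.05 there were 69 cassette and 16 mutually exclusive exons, beside 3526 of all 116469 bins. Limma, DESeq2 and the authors' deposited table also gave 0 exons of either class past the threshold. The drug and DMSO libraries did not overlap for 277 of the 3321 cassette exons (154 higher and 123 lower). For mutually exclusive exons this was 53 of 553 (26 and 27). The share among all bins was not computed, so these counts cannot tell whether the 2 classes differ from the background.

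The exons with the lowest p at 2 h are given as values. Beside OGT_E006 these were THOC2_E015, in the gene of a subunit of the TREX complex of mRNA export (0.628%, 1.01% and 0.889% in DMSO and 0.295%, 0.43% and 0.271% in OSMI-2), and ESYT2_E018 (mean 5.6% and 4.01%). Among mutually exclusive exons they were SLBP_E008, in the gene of the histone mRNA stem-loop binding protein, GRIPAP1_E026 and CCNB1IP1_E003, with log2 differences of -0.61, 0.69 and 1.38. SLBP_E008 stood at 5.23%, 5.71% and 4.54% in DMSO and 3.95%, 2.91% and 3.48% in OSMI-2 at 2 h, and at 4.01%, 4.03% and 4.56% against 4.86% and 5.94% at 6 h, so that the order of the groups turned. The difference between the times passed the edgeR test (0.99, SE 0.2, adjusted p = 0.0437), although neither time did alone.

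Tests of the difference between drugs and between times gave the following counts. At 6 h the effect of OSMI-2 lay above that of TMG for 9 and below it for 44 of 3697 cassette exons, and for 3 and 9 of 591 mutually exclusive exons, beside 1.86% of all bins (0.502% above and 1.36% below). At 2 h 0 passed in either class and among all bins (edgeR). An unadjusted p under 0.05 was found there for 153 of 3647 cassette and 22 of 584 mutually exclusive exons, beside 6199 of all 130553 bins. The 6 h effect of OSMI-2 lay below its 2 h effect for 11 of 3472 cassette exons and above it for 0, beside 0.422% of all bins (0.0501% above and 0.371% below), and above it for 1 of 568 mutually exclusive exons, SLBP_E008. For TMG, 1 of 3710 cassette exons passed, OGT_E006, beside 0.00535% of all bins (0.00306% above and 0.00229% below).

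More exons passed between the DMSO groups than between drug and DMSO. From 2 h to 6 h in the OSMI-2 experiment 129 of 3392 cassette exons rose and 22 fell, and 25 of 565 mutually exclusive exons rose and 1 fell, beside 6.94% of all bins (4.12% higher and 2.83% lower). In the TMG experiment 35 of 3714 cassette exons rose and 73 fell, and 4 of 584 mutually exclusive exons rose and 11 fell, beside 4.36% of all bins (1.66% higher and 2.70% lower). RPS24_E005 rose by 0.53 in the former (edgeR adjusted p = 7.97e-05) and fell by 0.54 in the latter (8.15e-08). POLG2_E008 likewise rose by 1.38 (0.000589) and fell by 0.7 (0.000429). Time in culture and any difference in handling between the DMSO groups cannot be told apart.

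The exons of listed genes are given by count, and the lists were chosen with earlier results of these data known. Of 15 tested exons in genes of LUC7-like, RBM and U2AF regulators, 2 fell at OSMI-2 6 h (TIAL1_E003 and RBM22_E005). Of 9 in the O-GlcNAc enzymes 1 fell (OGT_E006), and of 17 in genes known for mutually exclusive exons 1 rose (DNM1_E005, annotated as a cassette) and 1 fell (FYN_E007), beside 2.58% of all bins. The median log2 differences of the 3 lists were 0.02, 0.06 and 0.03, against 0.02 for all bins. Of 7 exons of SR proteins, TRA2 factors and CLK kinases, 5 of HNRNP and PTB repressors, 17 of genes known for cassette exons and 2 of decay factors, 0 passed at OSMI-2 6 h, and 0 passed at the other 3 comparisons. At OSMI-2 6 h the median log2 differences of these lists were -0.191, 0.051, 0.003 and 0.073, in that order. With TMG at 6 h OGT_E006 and FYN_E007 were the listed exons that passed, of 10 and 18 tested in their lists, beside 0.0148% of all bins.

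By length, cassette exons had a median of 113 bases and mutually exclusive exons of 107, against 125 for constitutive internal exons. The length was a multiple of 3 in 2396 of 4856 cassette exons (49.3%, exact binomial 95% interval 47.9% to 50.8%), in 337 of 697 mutually exclusive exons (48.4%, 44.6% to 52.1%) and in 26214 of 67668 constitutive internal exons (38.7%, 38.4% to 39.1%). The intervals of the alternative classes do not reach that of the constitutive exons. Exons of 27 bases or fewer made up 1.94%, 1% and 0.415% of the classes. Of the cassette exons that fell at OSMI-2 6 h 30 of 66 had a length divisible by 3, of those that rose 9 of 16, and of those that did not pass 1739 of 3524 (49.3%).

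**Figure D5:**
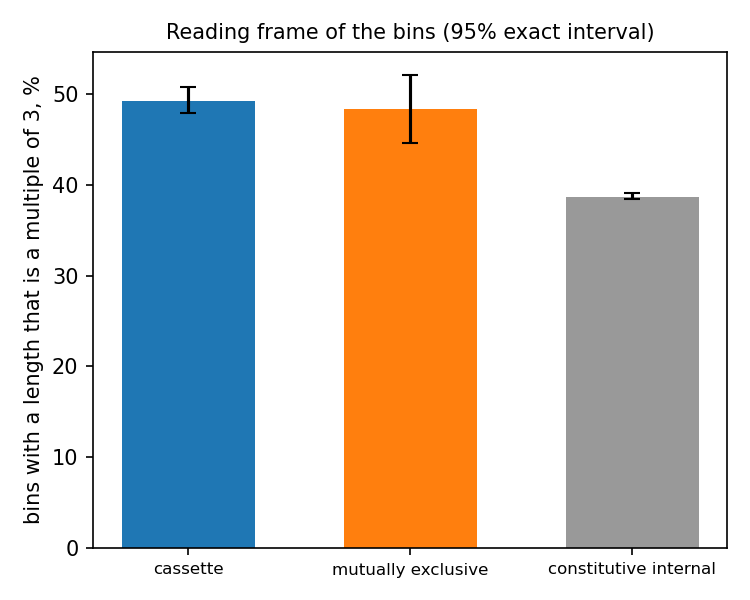
Share of bins whose length is a multiple of 3 (y axis, percent) for cassette, mutually exclusive and constitutive internal exons, with exact binomial 95% intervals. The shares are 49.3%, 48.4% and 38.7%.

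The mutually exclusive bins fell into 371 annotated events, of which 326 held 2 bins and 45 a single one. At OSMI-2 6 h, 251 pairs had both exons tested, and the log2 differences had opposite signs in 71 (28.3%). In TMG at 6 h this was 97 of 251 (38.6%), and at 2 h 73 of 237 with OSMI-2 (30.8%) and 91 of 259 with TMG (35.1%). Of the 7 pairs with a call at OSMI-2 6 h, 2 had opposite signs, and in 2, those of DDX46 and MIA3, both exons fell. The exons of a pair share the counts of their gene as a denominator, and no share to be found without a change was computed.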

How the data were processed

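PolyA RNA of HEK293T cells was sequenced with a stranded kit, per the labels' protocols. The submitters' processing notes name STAR and hg19. The counter, the annotation and the use of strand are not given in the sources used here. The authors deposited 4 tables, each with whole-number read counts per bin and library, and with their own log2 fold change and adjusted p-value of bin usage, per the file headers. All 23 count columns were used.

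From the counts, each bin outside detained introns with a mean of 10 or more was tested in its table with edgeR's quasi-likelihood test (edgeR 4.0.16, R 4.3.3), with the log of the gene's other counts outside detained introns plus 1 as offset. P-values were adjusted by the Benjamini-Hochberg method over all bins tested, with a threshold of 0.05, and all tests were two-sided. The SE is the log2 difference over the square root of F. Differences between drugs and between times were interaction terms. The alternatives were limma 3.58.1, DESeq2 1.42.0, the authors' deposited test, other count minimums, denominators and scalings, a joint fit, and leaving out each library. A robust edgeR prior was added after seeing the data. Exon lengths were compared by exact binomial intervals, which cover counting error only.

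Exons were named by a rule: the 5 largest rises and falls per class and comparison whose groups did not overlap and whose mean count was 50 or higher, those past the threshold in 2 or more comparisons under the same limits, those in listed genes, and the 3 with the lowest p where a class had no call. FAM208B_E023, CYTH1_E002 and EHMT2_E027, which enter the counts of lost calls but are not described, were chosen after their values were seen. So were exons of DDX46, SLIT2, CYTH2, RPS24, FUBP1, SIRT7, AK3, CCNL1, CDK12, EIF2AK2, MATR3, DPY30 and MORF4L1. FYN_E008 and the mutually exclusive exons other than those of FYN and PQLC2 at OSMI-2 6 h were chosen in this way too. So was the rule that matched bins to GENCODE release 29 (4 or more exon lengths in order, flanking exons among the 3 nearest bins). The members and lists were chosen with earlier results of these data known. The counts cover calls that the text does not name, and 1 result is not reported here.

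On simulated counts with 200 changed bins, the test recovered 90 of 100 bins changed by 1 on the log2 scale and 98 of 100 changed by 2 at TMG 2 h, and 67 and 97 of 100 at OSMI-2 6 h. Unchanged bins made up 24 of 212 calls (11.3%) and 41 of 205 calls (20%).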

Additional observations from a re-analysis of the deposited data

Results flagged for a closer look

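The effects of the drugs at 6 h, each against its own DMSO group, differed by an edgeR test of the difference itself (OSMI-2 minus TMG, log2 scale, adjusted p under 0.05) for 28 of the exons named here. Among all bins tested 1.86% passed. Most of the named exons were picked for a call at OSMI-2 6 h, and this test uses the same libraries. The number 28 was therefore favoured by the choice of exons and is only a description. The difference was negative for OGT_E006 (-5.24), DDX46_E016 (-4.33), DDX46_E017 (-3.66), C1orf35_E003 (-2.49), TIAL1_E003 (-2.4), BCAT2_E003 (-2.37), PHC2_E003 (-2.34), POLG2_E008 (-2.22), TLE4_E013 (-2.22) and MIA3_E029 (-2.01). It was also negative for CYTH2_E011 (-1.83), SIRT7_E002 (-1.77), CCNL1_E009 (-1.76), TARBP1_E008 (-1.76), RBM22_E005 (-1.71), CDK12_E019 (-1.64), SNRNP70_E009 (-1.59), AK3_E005 (-1.55), FYN_E007 (-1.44), FUBP1_E001 (-1.25) and PQLC2_E010 (-0.78). It was positive for EIF2AK2_E006 (1.17), DNAH14_E005 (1.04), FAM219B_E008 (0.89), EIF2AK2_E004 (0.81), FYN_E008 (0.59) and MATR3_E011 (0.58), and for SLIT2_E012 (3.91), whose TMG libraries at 6 h held 0 to 2 counts, so that the fitted value depends on the prior count and is no bound. OGT_E006, DDX46_E017 and FYN_E007 passed with both drugs, in opposite directions.

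The effect of OSMI-2 at 6 h differed from that at 2 h by the same kind of test (6 h minus 2 h) for TIAL1_E003 (-2.24), C1orf35_E003 (-2.12), POLG2_E008 (-1.97), SNRNP70_E009 (-1.76), FUBP1_E001 (-1.37), RPS24_E005 (-0.39) and SLBP_E008 (0.99). The effect of TMG differed between the times for OGT_E006 (1.34). The DMSO libraries at 6 h of the OSMI-2 experiment, with 0.756% to 1.21% of counts in detained introns, enter every one of these values except that of TMG, and their part was not tested.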

How the results depend on the processing

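At OSMI-2 6 h, 82 cassette and 11 mutually exclusive exons passed (16 and 0 higher). Limma gave 0 and 0 with either pseudocount, DESeq2 54 and 6, the authors' deposited test 160 and 19, a mean of 50 or more counts 33 and 1, and scaling by library size 177 and 41 (TMM) or 150 and 34 (median of ratios). Of the cassette calls, 10 were higher under TMM, 12 under median of ratios and 51 in the deposited test. Leaving out single libraries gave 26 to 79 and 1 to 9, the lowest without OSMI-2 library b. Without OSMI-2 library a there were 45 and 6, and without DMSO library a 7 mutually exclusive exons. Falls next to a detained intron numbered 28 cassette and 8 mutually exclusive exons. Limma gave 0 and 0, DESeq2 18 and 3, the higher minimum 10 and 1, TMM 13 for mutually exclusive exons, and leaving out libraries 10 to 26 and 0 to 5 (15 cassette exons without OSMI-2 library a).

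At TMG 2 h, 1 and 1 passed. Limma, DESeq2 and the joint fit of 23 libraries gave 0 and 0, the deposited test 3 cassette exons, the robust prior 2 cassette exons, the higher minimum 0 mutually exclusive exons, TMM 45 and 10, and median of ratios 41 and 9. Leaving out libraries gave 0 to 3 and 0 to 1, with 0 cassette exons without DMSO library a or TMG library c, and 0 mutually exclusive exons without DMSO library b or c or TMG library b. At TMG 6 h, 2 and 2 passed. Limma gave 0 and 0, DESeq2 1 and 0, the deposited test 1 mutually exclusive exon, the higher minimum and the joint fit 1 and 1, TMM 14 and 7, and median of ratios 16 and 7. Leaving out libraries gave 1 to 3 and 0 to 2, with 1 cassette exon without DMSO library a or c and 0 mutually exclusive exons without TMG library c. At OSMI-2 2 h every setting gave 0. The difference between drugs at 6 h, 53 and 12, was 18 and 4 with limma and 35 to 61 and 6 to 13 without single libraries, the lowest without OSMI-2 library b. Mutually exclusive exons also came to 6 without TMG library c and 7 without DMSO library a of the TMG experiment. At 2 h it was 0 to 1 and 0. The causes were not tested.

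The 43 calls of exons singled out by the naming rule or after their values were seen were kept in 437 of 657 alternatives. They were lost in 216 and reversed in 4. The reversals came under TMM and median of ratios, with DNAH14_E005 at -0.21 and -0.13, and AHRR+XLOC_PDCD6_E021 at -0.08 and -0.02. These totals include FAM208B_E023, CYTH1_E002 and EHMT2_E027, which the text does not describe. No paired analysis was possible because the columns carry letters and not the replicate numbers of the titles. Depth limits exons of low inclusion: cassette exons that fell had a median of the mean counts of 31.8.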
